A study of Mus musculus with 2 samples.

Results

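The 4 genes described here are Cxcl16, its receptor gene Cxcr6, and Adam10 and Adam17, the genes of the proteases that shed CXCL16 from the cell surface. They were taken by symbol from the 32285 genes of the files, and the rule uses no measured value. They were followed in leukocytes of the pancreatic islets of the non-obese diabetic (NOD) mouse, a strain with spontaneous autoimmune diabetes. The WT NOD group and the group labelled NOD.Cxcl16-/- have 1 library each, made from females aged 12 weeks and with no treatment named. Islets were picked by hand after collagenase digestion of the pancreas, dispersed, and sorted for live cells with the leukocyte marker CD45 and without the endothelial marker CD31. The number of mice behind each library is not stated, and the exons deleted in the Cxcl16 line are not named.

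CXCL16 is made as a transmembrane protein with a chemokine domain on a mucin stalk. On the cell surface it can hold cells that carry CXCR6 and take up oxidised lipid, and once cleaved it acts as a soluble attractant. ADAM10 is known mainly for constitutive and ADAM17 for stimulated shedding. CXCR6 is a receptor of activated, tissue-homing T cells and of several innate lymphocytes, and in autoimmune islets such T cells lie beside antigen-presenting myeloid cells.

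Promoter sequence is shown for the 3 members that the RefSeq table for GRCm38.p6 holds under these symbols. Cxcl16 has no entry there, and a link between this window and the levels below was not tested. Each line gives 200 bases, from 250 to 51 bases before the annotated start, 5′ to 3′ on the gene's strand, with CG dinucleotides in capitals. The windows are chr9:123806227-123806426 (plus strand) for Cxcr6, chr9:70678732-70678931 (plus strand) for Adam10 and chr12:21373683-21373882 (minus strand) for Adam17, where an exon of Gm49586 is also annotated.
Cxcr6: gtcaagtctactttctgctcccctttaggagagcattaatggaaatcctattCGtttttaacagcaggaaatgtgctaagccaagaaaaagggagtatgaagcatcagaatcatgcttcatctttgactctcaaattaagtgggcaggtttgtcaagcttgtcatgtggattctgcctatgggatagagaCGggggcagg
Adam10: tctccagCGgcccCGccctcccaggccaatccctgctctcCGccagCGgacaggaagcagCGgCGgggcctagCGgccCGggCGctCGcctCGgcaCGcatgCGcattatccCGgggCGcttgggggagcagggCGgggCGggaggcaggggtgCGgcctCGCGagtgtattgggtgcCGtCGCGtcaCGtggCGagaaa
Adam17: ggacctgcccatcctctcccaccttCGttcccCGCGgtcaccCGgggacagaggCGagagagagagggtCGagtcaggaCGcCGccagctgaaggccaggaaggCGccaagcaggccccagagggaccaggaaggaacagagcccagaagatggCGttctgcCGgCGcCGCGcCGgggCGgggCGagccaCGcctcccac
The Cxcr6 window held 2 CG dinucleotides at 43.5% G and C, and 36.4% of the 32851 promoters of the table had as few or fewer in the same window. The Adam10 window held 25 at 74% G and C, a number that 4.83% of promoters reached. The Adam17 window held 18 at 71% G and C, reached by 12.4%, against a median of 4. The letters GGGCGG, the core of the GC box, occurred 3 times in Adam10, once in Adam17 and not in Cxcr6, counting both strands, and 24.6% of promoters held them. Neither TGTGGT, the core that RUNX factors bind (11.6% of promoters), nor TATAAA (9.14%) was found in any of the 3 windows. Matches and their lack describe these letters in this window and nothing about a factor.

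The libraries held 13859 and 10554 cell barcodes with 93553185 and 98681133 unique molecular identifiers (UMIs, counts of captured RNA molecules), at medians of 3808 and 5054 UMIs per barcode, WT NOD first here and in every pair below. After filtering, 8047 and 7745 cells fell into exactly 1 of 16 classes gated on marker genes, none of which is a member. The 1989 and 1000 barcodes with markers of several lineages, called mixed, were left out of the classes. They differed between the libraries, at 18.3% and 10.7% of kept barcodes with medians of 1991 and 9230.5 UMIs. The libraries shared 45 barcode sequences. Each group has 1 library, so no difference between libraries has a replicate check or a test, and all intervals, at the 95% level, cover counting error only. Levels are in CPM, a gene's UMIs scaled to the total UMIs of a class, shares are of cells with at least 1 UMI, and ratios are log2 of the library labelled NOD.Cxcl16-/- over WT NOD with 1 CPM added. Levels were compared between cells and libraries, not between genes.

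Cxcl16, the ligand and the targeted gene, was counted in both libraries. It lies at chr11:70453983-70459984 (GRCm38, minus strand), with 5 exons. Over all barcodes it held 9668 UMIs in WT NOD and 10062 under the label NOD.Cxcl16-/-, which is 103 and 102 CPM. The deleted exons are not named, so the presence of the transcript does not settle what the second label stands for. That library is therefore called by its label, and no direction is attributed to genotype. Reads of a 3′ library fall near the last exon (chr11:70453983-70455444), and a tag outside the deleted part checks nothing about the protein. The groups of barcodes behind these equal levels differed between the libraries, also in their part of all UMIs. The 6 myeloid classes held 25.1% and 31.6% of all Cxcl16 UMIs, with 5.67% and 9.59% of the UMIs of all genes. Mixed barcodes held 28.7% and 35.5% of the Cxcl16 UMIs, with 15.4% and 19.8% of all UMIs. Barcodes removed for their doublet score held 28.5% and 14.3%, with 21.0% and 14.9% of all UMIs. T classes held 2.20% and 1.28% of the Cxcl16 UMIs, with 39.2% and 33.3% of all UMIs.

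Cxcl16 was a myeloid transcript in both libraries. Its level passed 100 CPM in the same 6 myeloid classes of each library, and additionally in plasmacytoid dendritic cell-like (pDC-like) cells at 104 CPM of the library labelled NOD.Cxcl16-/-. In WT NOD the order ran from migratory dendritic cell-like (DC-like) cells at 917 CPM (839.5 to 1000.1; 40 cells) through macrophage-like cells at 780 (721 to 843; 61 cells), classical monocyte-like at 543, cDC2-like at 495 and cDC1-like at 360 CPM to 284 CPM (265 to 305; 232 cells) in a class named by its genes Ifitm3 and Cfp. That last class met no dendritic, macrophage or classical monocyte gate, and the nonclassical monocyte genes Ace, Ear2, Cd300e and Treml4 were found in 1.36% of its cells or fewer. Eno3, of the same nonclassical list as these and as Ifitm3 and Cfp, was found in 22.8% and 30.4% of its cells. The dendritic cell genes Flt3 and Wdfy4 were found in 69.0% and 68.8% and in 79.3% and 82.1%, so the class is given no cell type name. The intervals of neighbouring monocyte-like and cDC2-like cells overlapped.

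In the library labelled NOD.Cxcl16-/- macrophage-like cells stood first, at 527 CPM (495 to 561; 169 cells), and migratory DC-like cells second, at 447 CPM (405 to 492; 68 cells). The other 4 classes lay together between 255 and 307 CPM. The step from macrophage-like to monocyte-like cells was thus larger than counting error in both libraries. Migratory DC-like and macrophage-like cells changed places between the libraries, and in WT NOD their intervals overlapped.

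All 6 myeloid classes had a lower Cxcl16 level in the library labelled NOD.Cxcl16-/-. The log2 ratio farthest from 0 was in migratory DC-like cells, at -1.04 (-1.23 to -0.85), 48.7% of the WT NOD level. Monocyte-like cells followed at -0.96 (-1.31 to -0.61), from 178 and 116 UMIs in 32 cells of each library. Macrophage-like cells stood at -0.57 (-0.71 to -0.42), 67.6% of WT NOD.

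In the remaining myeloid classes the ratio was -0.69 (-1.16 to -0.20) in cDC2-like cells, which were only 8 in WT NOD, -0.29 (-0.54 to -0.05) in cDC1-like cells and -0.15 (-0.28 to -0.02) in the Ifitm3 Cfp class. Migratory DC-like, monocyte-like and cDC2-like cells were lower by 1.5-fold or more, as were 11.8%, 15.9% and 23.8% of the genes tested in them (genes at 20 CPM or more in either library). The macrophage-like ratio fell just short of that size, which 9.67% of genes there reached. Among those genes the Cxcl16 ratio was at the 3.84th percentile in migratory DC-like, the 7.96th in monocyte-like and the 10.4th in macrophage-like cells, so many genes moved as far.

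The plot of Cxcl16 and Cxcr6 by class sets these levels side by side.

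**Figure D1:**
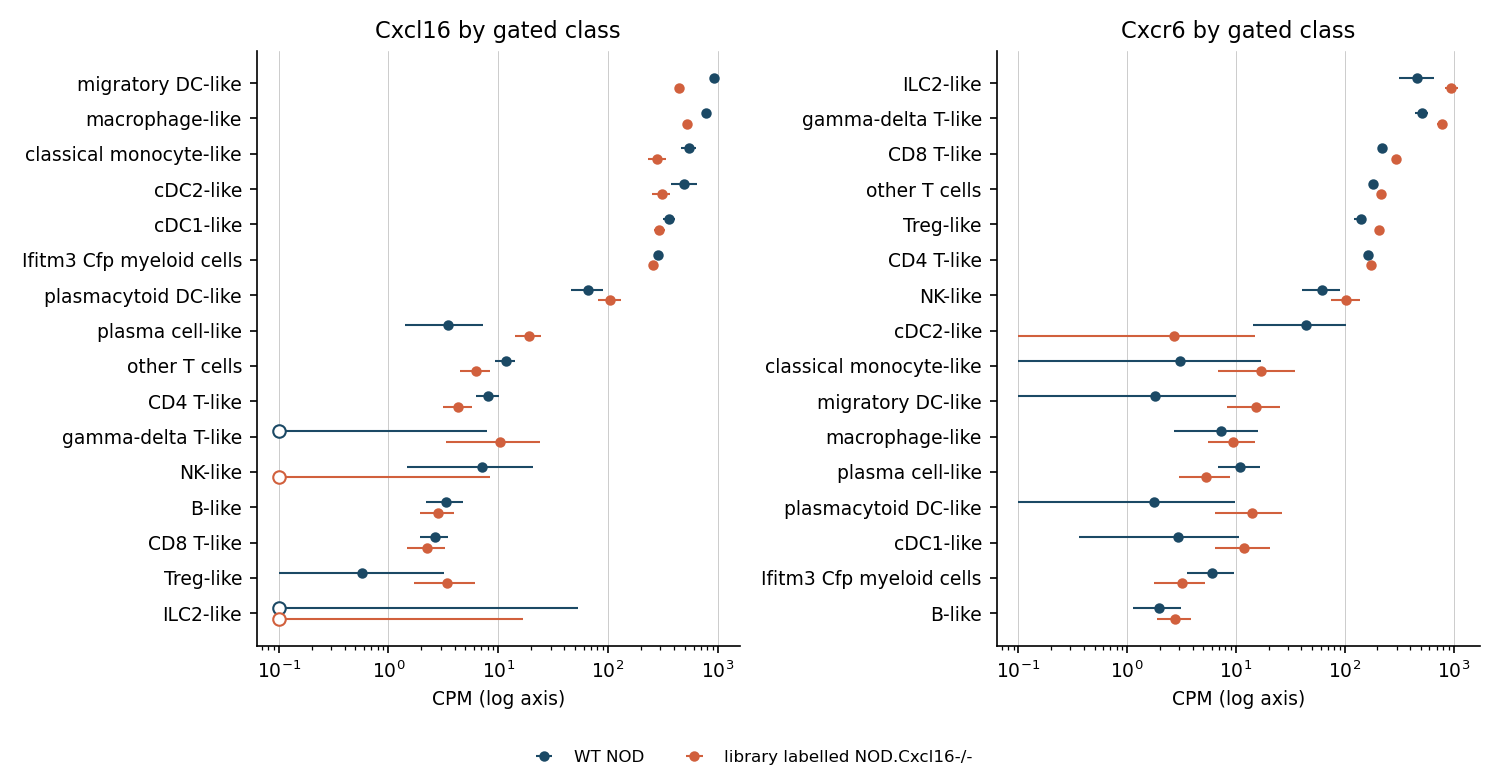
Levels of Cxcl16 (left) and Cxcr6 (right) in CPM on a log axis for each gated class, with 1 point per library and bars for the 95% Poisson interval (counting error only); open circles at the left edge are classes with 0 UMIs. In both libraries Cxcl16 lies above 200 CPM in the 6 myeloid classes and Cxcr6 in ILC2-like, gamma-delta T-like and CD8 T-like cells, and no class is high for both.

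Shares of cells gave the same direction where the level differed most. With every cell thinned to 2000 UMIs, Cxcl16 was found in 82.1% (69.6 to 91.1) of the WT NOD macrophage-like cells and in 65.4% (57.4 to 72.8) of those in the library labelled NOD.Cxcl16-/-, with 5 and 13 shallower cells left out. Before thinning it was found in 96.7% and 89.9%, with medians of 13027 and 10593 UMIs per cell. In migratory DC-like cells the thinned shares were 75.0% (58.8 to 87.3) and 52.9% (40.45 to 65.2), and the shares with 3 or more UMIs 27.5% and 7.35%. The intervals of the thinned shares overlapped in both classes.

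The Ifitm3 Cfp class showed no such gap, with 33.9% and 33.6% after thinning (5 and 2 cells left out; 73.3% and 80.7% unthinned). B-like cells, taken as the background of free RNA, had 0.637% and 0.632% (1.39% in both unthinned, at medians of 4602.5 and 4637 UMIs). CD8 T-like cells, at 0.516% and 0.285%, lay at or below that background. A pair of other classes had more Cxcl16 in the library labelled NOD.Cxcl16-/- on few cells. It stood at 65.6 and 104 CPM in pDC-like cells, where 1 cell held 32.4% and 35.8% of the UMIs, and at 3.50 and 18.9 CPM in plasma cell-like cells, where 1 cell held 57.1% and 56.6%. Genes higher by 1.5-fold or more made up 13.3% and 6.03% of those tested in these classes.

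Over the pooled myeloid cells, Cxcl16 was higher in cells with many macrophage or migratory DC markers. Over the 6 classes together, cells with a UMI of none of the 10 macrophage markers held 268 and 262 CPM and cells with 7 or more held 769 and 498 CPM. Between them the levels did not rise at every step, and 4 steps in WT NOD and 2 in the other library rested on fewer than 20 cells. Over the 9 migratory DC markers Cxcl16 stood at 272 and 292 CPM in cells with none, and at 906 and 614 CPM in cells with 6 or more (24 and 29 cells). In the library labelled NOD.Cxcl16-/- it stayed between 278 and 361 CPM up to 5 of those markers, and in WT NOD it was already 505 CPM at 3. Since markers and member were counted in the same cells, cells with more UMIs reach higher steps. Of the markers, 7 of the 10 and 8 of the 9 also set the class gates, so these steps partly restate the order of the classes.

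Interferon-response genes, the targets of type I and II interferon, were read beside Cxcl16 in the myeloid cells. Cells of the 6 classes with none of the 8 interferon markers held 285 and 252 CPM of Cxcl16, and cells with 5 or more held 698 and 408 CPM (52 and 37 cells). Irf7, one of these markers and itself an interferon-induced transcription factor, stood at 258 and 86.4 CPM in macrophage-like, 512 and 93.7 CPM in monocyte-like and 281 and 38.1 CPM in migratory DC-like cells. The summed level of the list was 10.8 and 8.97 UMIs per 10000 in macrophage-like, 11.2 and 4.24 in migratory DC-like and 5.27 and 3.53 in Ifitm3 Cfp cells. In macrophage-like cells the list as a whole thus differed far less than Irf7, which does not stand for the other markers there.

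Within macrophage-like cells the libraries lay apart above the lowest interferon step. At 2 or fewer markers Cxcl16 held 624 (534 to 725; 27 cells) and 526 CPM (482 to 572; 116 cells), with overlapping intervals. At 3 markers it held 939 and 494 CPM, with only 9 WT NOD cells, and at 4 or more 831 (746 to 924; 25 cells) and 549 CPM (489 to 613.5; 32 cells). The level was therefore flat over these steps in the library labelled NOD.Cxcl16-/- and higher above the first step in WT NOD. In the Ifitm3 Cfp class the libraries overlapped up to 2 markers, at 284 and 295 CPM, and stood at 389 and 284 CPM at 4 or more. The part of the interferon genes in the ratios was not tested beyond these steps. The islet hormone transcripts Ins1 and Ins2 also differed in macrophage-like cells, at 1996 and 3358 CPM and at 3666 and 6860 CPM, within an endocrine list of 6 markers whose summed level was 65.1 and 110 UMIs per 10000. The summed T-cell markers stood at 3.19 and 1.87 there, and the part of neither list was tested.

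**Figure D2:**
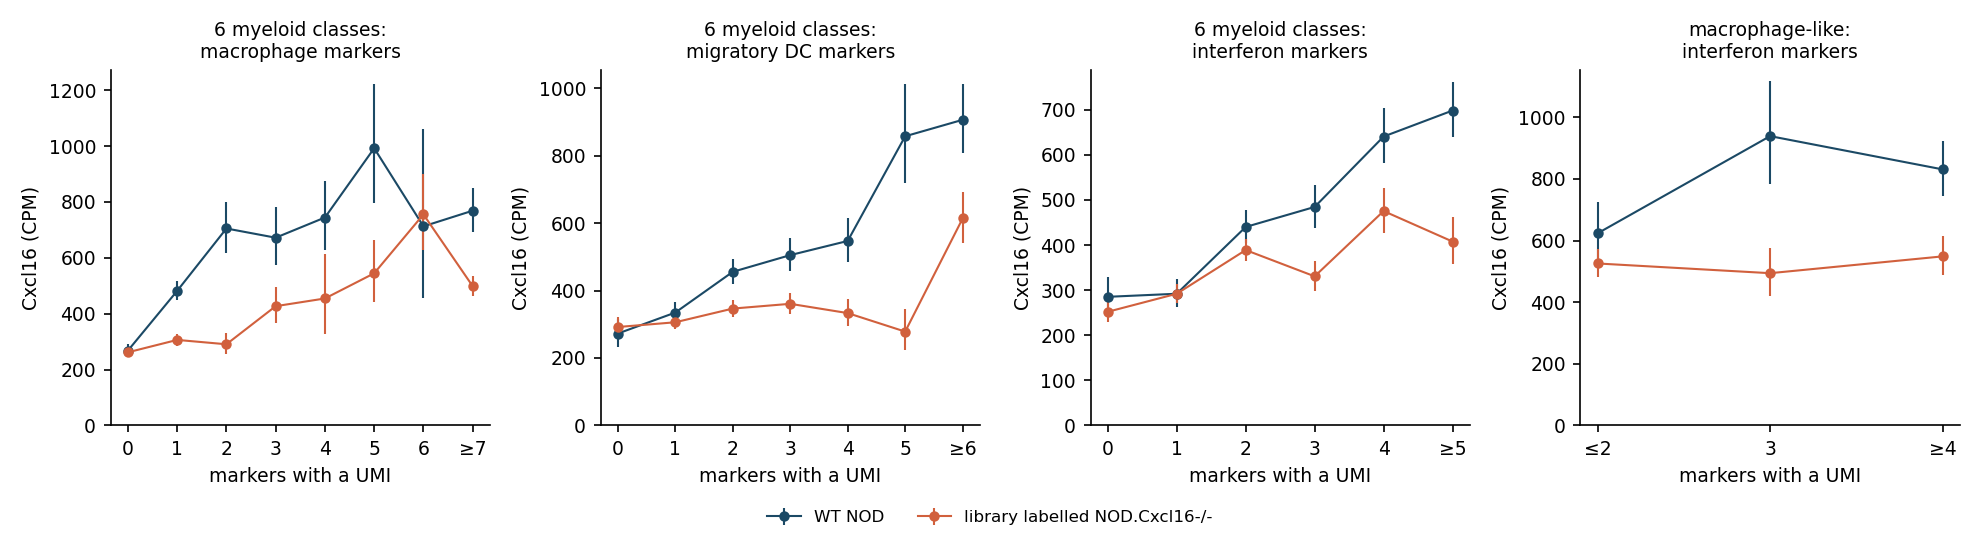
Cxcl16 level (CPM, bars for the 95% Poisson interval) against the number of markers with a UMI in each myeloid cell, for marker lists named above each panel, with 1 line per library. Over the interferon-response markers the lines are close at 0 markers, at 285 and 252 CPM, and apart at 5 or more, at 698 and 408 CPM.

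The gates have near misses. At the macrophage gate, and before any other myeloid gate was applied, 21 and 33 cells sat at the lowest passing number of markers and 21 and 40 cells had 1 marker fewer, with Cxcl16 at 997 and 526 CPM in the first and 549 and 348 CPM in the second. For the migratory DC gate these were 21 and 50 cells at 767 and 296 CPM, and 62 and 108 cells at 516 and 324 CPM. The lower level in the library labelled NOD.Cxcl16-/- held on both sides of both gates.

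Genes beside Cxcl16 on the chromosome were read in the same cells. Zmynd15 starts inside Cxcl16 on the opposite strand, with 552 bases in common, and stood at 595 and 174 CPM in migratory DC-like and 117 and 146 CPM in macrophage-like cells. Med11 ends 255 bases beyond the 3′ end of Cxcl16, and stood at 91.2 and 59.8 CPM in migratory DC-like and 46.4 and 21.4 CPM in macrophage-like cells. Whether counting used strand is not given in the sources used here, so reads of the overlapping stretch of Cxcl16 and Zmynd15 may not be separable. These neighbours were picked for their position.

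Cxcr6, the receptor, belonged to the lymphocytes. It lies at chr9:123806475-123811760 on the plus strand, wholly within the span of Fyco1 on the other strand. Over all barcodes it held 11411 and 11654 UMIs (122 and 118 CPM), of which T classes held 63.5% and 67.6% and mixed barcodes 13.5% and 12.2%. B-like cells held 1.94 and 2.74 CPM and the 6 myeloid classes 6.03 and 7.19 CPM. Fyco1 stood at 45.2 and 46.3 CPM in macrophage-like cells.

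The highest Cxcr6 levels were in unconventional lymphocytes. ILC2-like cells, innate producers of type 2 cytokines, held 466 CPM (319 to 657.5; 32 UMIs in 15 cells) and 956 CPM (830 to 1095; 208 UMIs in 47 cells). Gamma-delta T-like cells held 510 (447 to 579; 88 cells) and 788 CPM (711 to 871; 91 cells). Their intervals overlapped in each library, and both classes stood above all others in both.

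The conventional T classes came next. CD8 T-like cells, the cytotoxic lineage, held 219 (212 to 226; 2216 cells) and 294 CPM (285 to 304; 1455 cells). T cells that met neither the CD4 nor the CD8 gate held 182 and 216 CPM, CD4 T-like cells 165 and 176 CPM, and regulatory T-like (Treg-like) cells 140 (123 to 158; 250 cells) and 208 CPM (192 to 224; 404 cells). NK-like cells held 62.1 and 103 CPM from 26 and 45 UMIs. CD8 T-like cells carried 51.7% and 43.2% of the Cxcr6 UMIs of all gated cells, with 27.5% and 18.8% of the cells.

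Cxcr6 was higher in the library labelled NOD.Cxcl16-/- in each of these classes, by different amounts. The log2 ratio was 0.42 (0.36 to 0.49) in CD8 T-like cells, at the 97.5th percentile of the genes tested there, and 0.57 (0.36 to 0.79) in Treg-like cells, at the 97.4th. It was 0.24 (0.14 to 0.35) in the T cells outside the CD4 and CD8 gates and 0.09 (-0.01 to 0.19) in CD4 T-like cells, where the interval held 0. It was 0.63 (0.39 to 0.87) in gamma-delta T-like, 1.04 (0.50 to 1.62) in ILC2-like and 0.72 (0.00 to 1.47) in NK-like cells.

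In the last 3 classes the ratio passed 1.5-fold, as did 18.2%, 28.7% and 13.9% of the genes tested there, so it did not stand apart. In CD8 T-like and Treg-like cells it stayed below 1.5-fold, a size that 0.818% and 2.47% of genes reached upwards. The difference between the CD8 and CD4 ratios was not tested.

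After thinning to 2000 UMIs, 27.4% (25.4 to 29.4) and 31.1% (28.6 to 33.6) of CD8 T-like cells had a Cxcr6 UMI, with 276 and 51 cells left out (before thinning 42.3% and 47.1%, with medians of 5251.5 and 5696 UMIs per cell). The thinned shares were 19.3% and 22.8% of Treg-like cells, with overlapping intervals, and 19.9% and 17.7% of CD4 T-like cells. Gamma-delta T-like cells had 50.0% and 65.6% (62.5% and 75.8% unthinned). ILC2-like cells had 46.7% (21.3 to 73.4) and 78.7% (64.3 to 89.3), with overlapping intervals, but 86.7% and 80.9% unthinned at medians of 4477 and 4483 UMIs, so no order is read from these shares. B-like cells had 0.255% and 0.316% (0.907% and 1.03% unthinned), which places every one of these shares above the background.

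Among CD8 T-like cells the Cxcr6 level was highest in terminal effector-like cells. States were gated on marker numbers, with cycling cells set apart. Terminal effector-like cells held 667 (629 to 706; 262 cells) and 775 CPM (733 to 819; 223 cells). They carried 31.3% and 36.3% of the CD8 Cxcr6 UMIs while making up 11.8% and 15.3% of the cells. Memory-like cells held 306 and 457 CPM and cycling cells 149 and 211 CPM. Cycling cells, with more UMIs per cell, still carried 31.6% and 26.7% of the CD8 Cxcr6 UMIs, and memory-like cells 15.8% and 17.1%. CD8 cells in no state held 393 and 412 CPM, above the memory-like cells in WT NOD and below them in the other library.

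The least Cxcr6 was in the early states. Progenitor-like cells, the self-renewing pool that feeds the effector cells, held 54.0 (43.9 to 65.7; 259 cells) and 102 CPM (88.7 to 116; 297 cells). Naive-like cells held 46.8 (37.9 to 57.3; 327 cells) and 77.8 CPM (64.5 to 93.1; 250 cells). The intervals of these states overlapped in both libraries. The thinned shares ran in the same order, from 59.5% and 65.0% in terminal effector-like to 8.31% and 10.8% in naive-like cells.

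The ratio between libraries was above 0 in each of the 5 CD8 states named. It was 0.22 (0.10 to 0.33) in terminal effector-like, 0.58 (0.41 to 0.74) in memory-like, 0.50 (0.37 to 0.62) in cycling, 0.72 (0.33 to 1.12) in naive-like and 0.90 (0.56 to 1.25) in progenitor-like cells. The naive-like and progenitor-like ratios passed 1.5-fold. The share of all genes that did so was counted for classes and not for single states, so whether these ratios stand apart is not known. In CD8 cells in no state it was 0.07 (-0.13 to 0.26), at medians of only 2568 and 3762.5 UMIs. The interferon-signature state held 46 cells in WT NOD and 5 in the other library, too few to read.

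Among CD4 T-like cells Th1-like cells, the interferon-gamma-producing helpers, held the most. Their level was 454 (419 to 491; 247 cells) and 562 CPM (525 to 601; 263 cells), and they carried 41.1% and 47.0% of the CD4 Cxcr6 UMIs with 15.4% and 16.02% of the cells. Anergic-like cells held 123 and 105 CPM, with overlapping intervals. Naive-like cells held 31.4 and 28.5 CPM.

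Follicular helper-like (Tfh-like) cells, which help B cells, stood at 59.1 (41.6 to 81.4; 82 cells) and 147 CPM (125 to 172; 137 cells), a log2 ratio of 1.30 (0.78 to 1.85). This passed 1.5-fold, and here too the share of all genes reaching that size was not counted. The Tfh-like level came from 37 and 160 UMIs. Their thinned shares were 8.86% (3.64 to 17.4) and 11.0% (6.26 to 17.4), with overlapping intervals, so the level differed where the share of cells did not clearly do so. How far single cells carried these UMIs was not read for this state. CD4 cells in no state stood at 241 and 212 CPM, a ratio of -0.19 (-0.37 to -0.01), and CD4 cells in cycle at 54.2 and 43.1 CPM. The CD4 interferon-signature state, with 5 UMIs in 28 cells and 0 in 4, is too small to read. Directions thus differed between CD4 states, and the differences were not tested. Treg-like cells out of cycle held 181 and 289 CPM, and those in cycle 36.0 and 55.5 CPM.

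Of the 17 T-cell states, 10 stood above 100 CPM in both libraries, as the plot by state shows. They include gamma-delta T-like cells, the CD8 and CD4 cells in no state, and the CD8 interferon-signature state that is too small to read. When each gate asked for 1 more marker, 8 stood above 100 CPM.

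**Figure D3:**
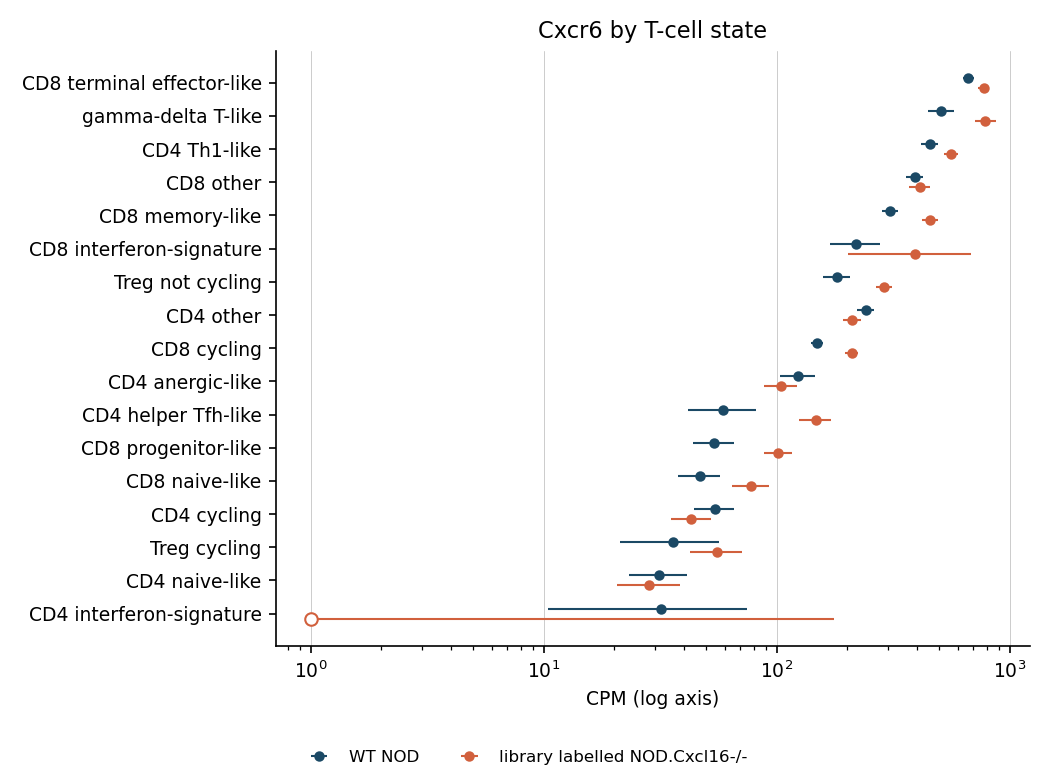
Cxcr6 level (CPM, log axis) in each gated T-cell state, with 1 point per library and bars for the 95% Poisson interval; an open circle at the left edge is a state with 0 UMIs. CD8 terminal effector-like, gamma-delta T-like and CD4 Th1-like cells lie to the right at 454 CPM or more in both libraries, and naive-like and progenitor-like cells to the left at 102 CPM or less.

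Levels were also read along the number of markers, without a threshold. In CD8 T-like cells Cxcr6 went down from 567 and 913 CPM in cells with none of the 8 naive markers to 36.6 and 74.9 CPM in cells with 7 or more. Its last step in the library labelled NOD.Cxcl16-/- alone went the other way. For the 9 terminal effector markers it stood at 77.5 and 102 CPM with none and at 366 and 605 CPM with 7 or more, the last step in 23 and 20 cells. Over the 6 progenitor markers it went from 516 and 816 CPM to 43.2 and 75.1 CPM at 5 or more. Over the 7 memory markers the level was highest in between, at 343 CPM with 3 markers in WT NOD and 395 CPM with 4 in the other library, and stood at 143 and 171 CPM with 7. Interferon markers made little difference in CD8 T-like cells, with 224 and 288 CPM at none and 223 and 283 CPM at 3 or more.

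In CD4 T-like cells the naive list ran from 797 and 826 CPM to 16.7 and 15.6 CPM. The Th1 list ran from 17.1 and 46.7 CPM to 318 and 333 CPM at 5 markers, and then to 200 and 514 CPM at 6 or more. Over the Tfh list the level was highest at 2 markers, with 260 and 264 CPM, and 18.6 and 50.4 CPM at 5 or more. Cells with 5 or more anergy markers held 21.1 and 18.4 CPM, against 281 and 479 CPM in cells with none. Unlike in CD8 T-like cells, the level was lower along the interferon list, from 207 and 183 CPM to 63.6 and 31.7 CPM.

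**Figure D4:**
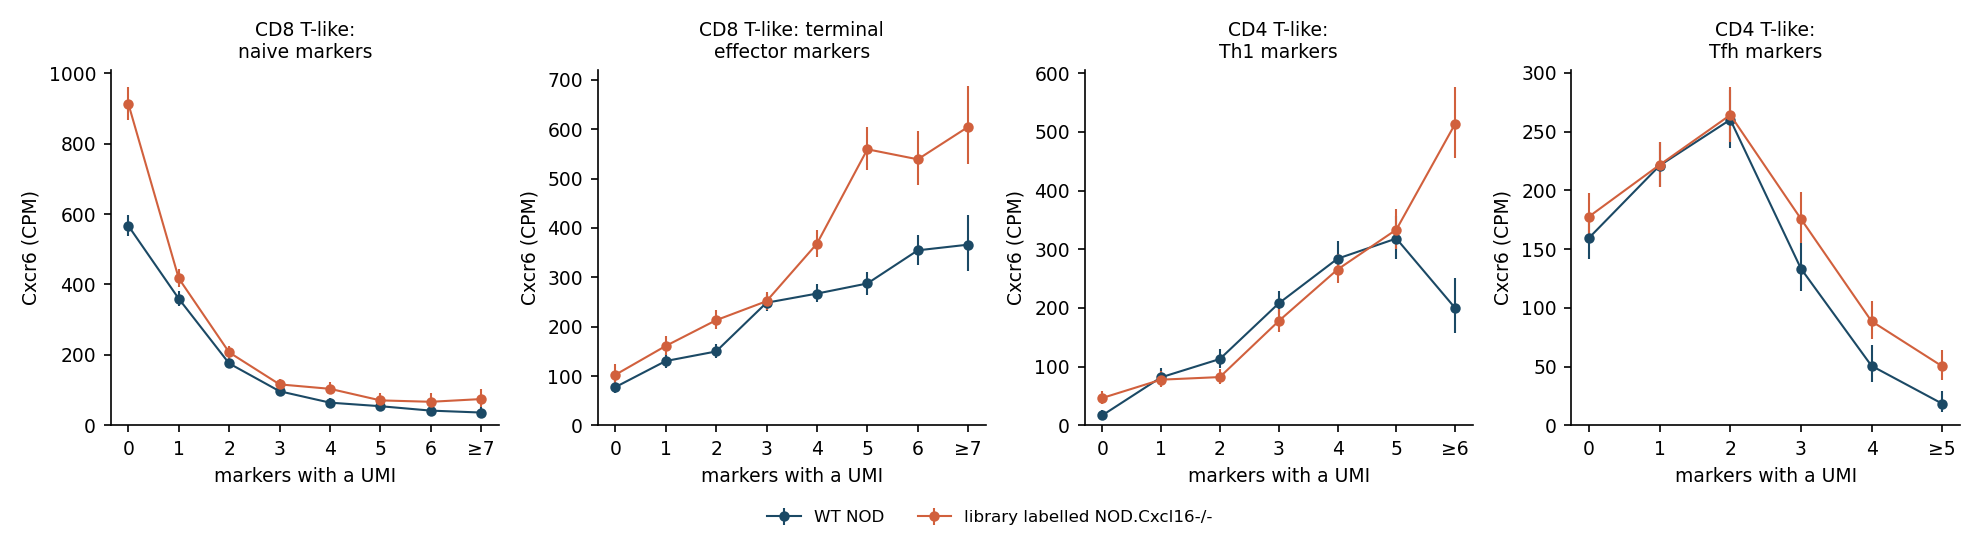
Cxcr6 level (CPM, linear axis, bars for the 95% Poisson interval) against the number of markers of each list with a UMI in a cell, for CD8 T-like and CD4 T-like cells, with 1 line per library. Levels go down along the naive lists, from 567 and 913 CPM to 36.6 and 74.9 CPM in CD8 T-like cells. With none of the CD8 terminal effector markers they stand at 77.5 and 102 CPM, and with 7 or more at 366 and 605 CPM.

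Other chemokine receptors marked the Cxcr6 cells unevenly. In cells thinned to 2000 UMIs, 7 of 11 listed receptors were found in enough cells (20 with the gene in each library) of CD8 T-like and of CD4 T-like cells. The share with Cxcr6 was higher beside Ccr2, a receptor for inflammatory chemokines, in both lineages and both libraries, with intervals that did not overlap. Of CD4 T-like cells with Ccr2, 50.9% and 52.2% had Cxcr6, against 17.3% and 15.0% of those without. In CD4 T-like cells the share was also higher beside Ccr8 and Cxcr3.

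Beside Ccr7, the receptor for entry into lymph nodes, it was lower in both lineages, at 7.29% and 7.82% of CD8 T-like cells with it and 31.1% and 35.9% of those without. Ccr7 is also one of the naive markers. For Cxcr3, the receptor for the interferon-induced chemokines, the intervals of CD8 T-like cells with and without it overlapped, at 25.9% and 27.7% in WT NOD and 32.1% and 30.8% in the library labelled NOD.Cxcl16-/-. This share of cells depends on the depth left after thinning.

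Genes of residence in tissue and exit from it were then read. In CD8 T-like cells 10 of the 11 were in enough cells, and the Cxcr6 share was higher beside Bhlhe40, Prdm1 and Rgs1 and lower beside Klf2 and S1pr1, which direct exit to the blood. In CD4 T-like cells 8 of 11 were in enough cells, higher beside Bhlhe40, Prdm1, Rgs1 and Runx3 and lower beside Cd69, Klf2 and S1pr1. Of CD4 T-like cells with Rgs1, a brake on chemokine receptor signals, 32.04% and 27.5% had Cxcr6, against 6.90% and 6.93% of those without. The integrin gene Itgae gave overlapping intervals in CD8 T-like cells, at 21.4% with and 27.6% without in WT NOD and 34.4% with and 30.9% without in the other library, and no direction is read from it. For Cd69 in CD8 T-like cells the shares were 24.4% with and 29.2% without in WT NOD and 27.2% with and 33.4% without in the other library, and these intervals overlapped too.

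Adam10, the first sheddase, was found broadly, with no class far above the median class. It lies at chr9:70678997-70780229 on the plus strand and has 16 exons. It held 4717 and 5021 UMIs over all barcodes (50.4 and 50.9 CPM), and no class passed 100 CPM. The highest class, CD4 T-like in WT NOD at 67.7 CPM and NK-like in the other library at 82.5 CPM, was 1.52 and 1.86 times the median class. For Cxcl16 that factor was 93.1 and 36.1, and for Cxcr6 18.5 and 59.7. Adam10 was lowest in cDC2-like cells of WT NOD, at 8.83 CPM from 1 UMI, and in ILC2-like cells of the other library, at 18.4 CPM from 4 UMIs.

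Macrophage-like and migratory DC-like cells, the classes highest in Cxcl16, were not rich in Adam10. It stood at 31.7 (20.7 to 46.5) and 34.4 CPM in macrophage-like, 21.5 and 25.0 CPM in migratory DC-like and 34.5 and 26.2 CPM in Ifitm3 Cfp cells. Monocyte-like cells held more, at 57.9 and 40.8 CPM from 19 and 17 UMIs. The level was 20.7 and 29.3 CPM in cDC1-like and 8.83 and 40.1 CPM in cDC2-like cells, from 1 and 15 UMIs in the latter. CD4 T-like cells held 67.7 and 68.7 CPM, B-like cells 60.0 and 58.3 CPM and CD8 T-like cells 45.3 and 47.8 CPM. Pooled, the 6 myeloid classes held 31.9 (27.2 to 37.0) and 29.3 CPM (25.9 to 32.9), below the T classes at 54.2 (51.8 to 56.6) and 59.4 CPM (56.8 to 62.1) in both libraries.

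The Adam10 ratio in macrophage-like cells was 0.11 (-0.54 to 0.80), an interval that reaches past 1.5-fold upwards and nearly so downwards. Treg-like cells stood at 43.7 and 71.2 CPM, a ratio of 0.69 (0.32 to 1.08), past 1.5-fold where 2.47% of genes were higher by as much. Plasma cell-like cells stood at 17.0 and 27.1 CPM, a ratio of 0.64 (0.07 to 1.24), where 6.03% were. The thinned shares of Treg-like cells with Adam10 were 10.5% (6.91 to 15.1) and 14.2% (10.9 to 18.1), and these overlapped.

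Adam17, the second sheddase, leaned to myeloid cells, though not to every myeloid class. It lies at chr12:21323509-21373632 on the minus strand with 19 exons, and its 3′ end shares 311 bases with Iah1 on the other strand. It held 5331 and 6093 UMIs over all barcodes (57.0 and 61.7 CPM). The highest class was pDC-like at 145 and 127 CPM, followed by monocyte-like at 125 and 123 CPM and macrophage-like cells at 123 CPM in both. Iah1 stood at 63.5 and 53.6 CPM in macrophage-like cells.

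The intervals of these 3 classes overlapped. Migratory DC-like cells, the other class high in Cxcl16, held 66.2 and 77.2 CPM of Adam17, and the Ifitm3 Cfp class 63.0 and 78.7 CPM. Treg-like cells held 94.8 and 78.1 CPM, CD8 T-like cells 45.4 and 43.1 CPM, CD4 T-like cells 43.0 and 42.0 CPM and plasma cell-like cells 20.5 and 17.1 CPM.

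Pooled, the 6 myeloid classes held 72.7 (65.7 to 80.4) and 88.6 CPM (82.7 to 94.8) of Adam17, above the T classes at 47.5 and 47.0 CPM. The pooled myeloid ratio was 0.28 (0.11 to 0.46), in pools whose mix of classes differed between the libraries. In macrophage-like cells the Adam17 ratio was 0.00 (-0.34 to 0.35), beside the Cxcl16 ratio of -0.57 in the same cells. In the Ifitm3 Cfp class it was 0.32 (0.06 to 0.58) and in cDC1-like cells 0.87 (0.18 to 1.62), on 32.6 and 60.5 CPM, where 12.9% of genes were higher by 1.5-fold or more. After thinning, 21.4% and 27.6% of macrophage-like and 21.9% and 34.4% of monocyte-like cells had an Adam17 UMI, against 8.29% and 9.01% of B-like cells. Migratory DC-like cells had 7.50% and 14.7% and cDC1-like cells 3.23% and 10.0%, with intervals that held the B-like shares. Treg-like cells had 17.2% and 14.5%. In CD8 T-like cells Adam17 went along the terminal effector list from 33.9 and 26.8 CPM at none to 54.8 and 60.5 CPM at 6 markers, while Adam10 went from 43.0 and 49.8 CPM to 50.8 and 52.1 CPM.

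**Figure D5:**
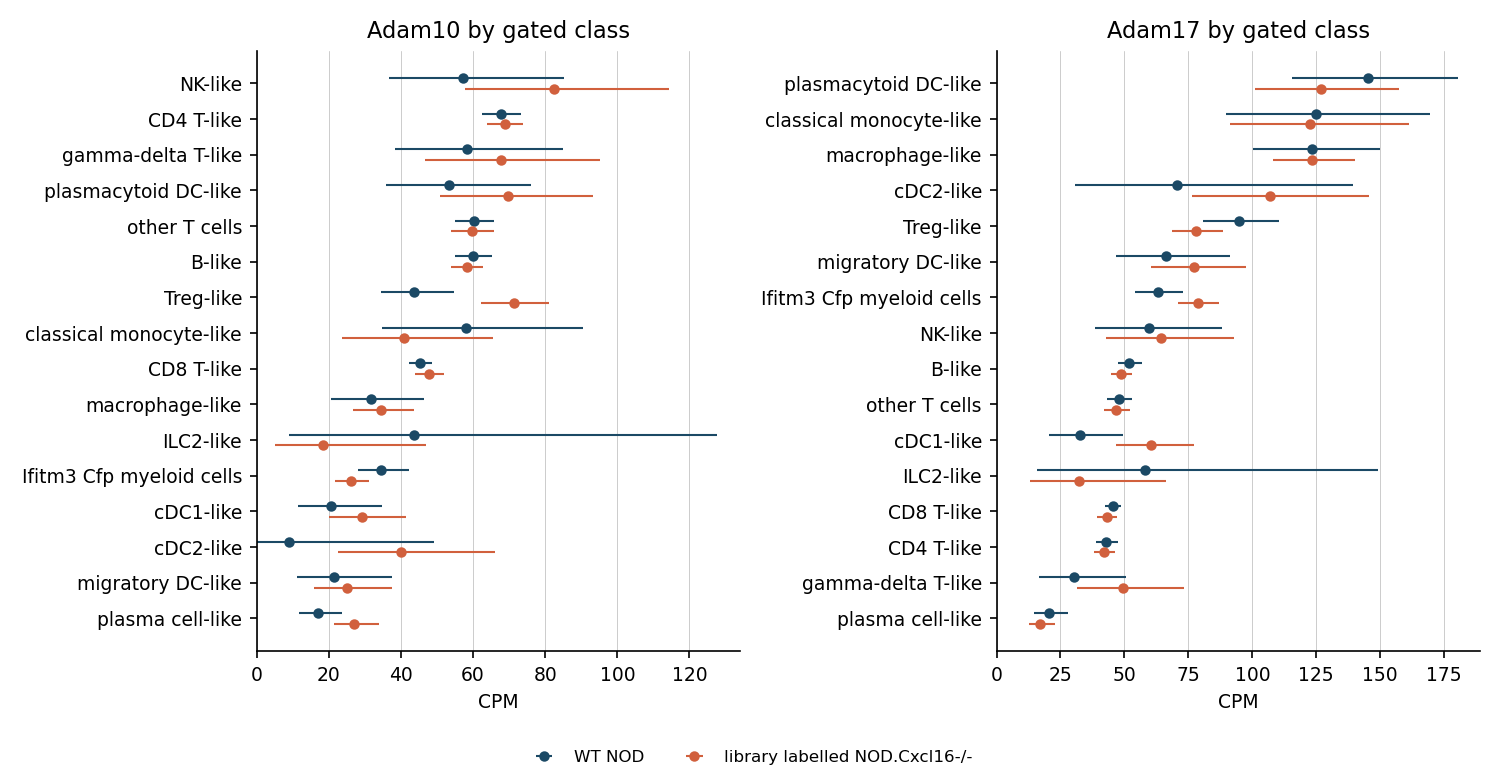
Levels of Adam10 (left) and Adam17 (right) in CPM on a linear axis from 0 for each gated class, with 1 point per library and bars for the 95% Poisson interval (counting error only). Adam10 stays under 100 CPM in every class, and Adam17 is highest in pDC-like, monocyte-like and macrophage-like cells, at 122.5 to 145 CPM.

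Ligand and sheddases were then looked for in the same cell. This was done in myeloid cells thinned to 8000 UMIs, 345 and 614 cells, with 59 and 104 left out. Cxcl16 was found in 79.4% and 79.6%, Adam10 in 21.4% and 18.1% and Adam17 in 38.3% and 44.5% of them. Cxcl16 with either protease was found in 40.9% (35.6 to 46.3) and 42.8% (38.9 to 46.9), and all 3 together in 6.38% and 7.17%.

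The proteases did not follow the ligand from cell to cell. Adam17 was found in 38.3% of WT NOD cells with Cxcl16 and 38.0% of those without, and in 44.6% and 44.0% of such cells in the library labelled NOD.Cxcl16-/-. For Adam10 the corresponding shares were 21.2% and 22.5%, and 18.2% and 17.6%. All 4 pairs of intervals overlapped, and a transcript missed at this depth may still be present. Of the 71 and 125 cells without Cxcl16, 52 and 91 were of the Ifitm3 Cfp class. Only 2 in each library were macrophage-like, so these shares cannot be compared within that class.

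By class, macrophage-like cells most often held Cxcl16 with a protease, at 64.4% (48.8 to 78.1) of 45 and 61.0% (50.9 to 70.3) of 105 cells. Monocyte-like cells followed at 60.0% and 57.1% of 25 and 28 cells, with overlapping intervals. Migratory DC-like cells had 51.4% and 44.3%, the Ifitm3 Cfp class 33.5% and 35.4%, and cDC1-like cells 25.8% and 38.0%. In macrophage-like cells Adam17 made most of this, being found with Cxcl16 in 57.8% and 57.1% and Adam10 in 20% and 19.0%.

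Partners of the sheddases were detected in part. Of the 6 tetraspanins that escort ADAM10, 2 reached 20 CPM in macrophage-like cells. Tspan14 stood at 25.6 and 20.3 CPM, and Tspan33 at 96.4 and 61.4 CPM, a ratio of -0.64 (-1.06 to -0.22), the 1 of them lower by 1.5-fold (background 9.67%). In migratory DC-like cells Tspan33 stood at 127 and 83.7 CPM and Tspan17 at 25.0 and 12.0 CPM, both lower by 1.5-fold (background 11.8%). T cells held another pair, Tspan5 at 84.5 and 84.6 CPM and Tspan14 at 67.5 and 69.2 CPM in CD4 T-like cells. The list median was -0.48 in macrophage-like and 0.02 in CD4 T-like cells, against -0.05 and 0.04 over all genes tested.

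Of the 3 ADAM17 partners, macrophage-like cells held Rhbdf2, an iRhom that carries ADAM17 to the surface, at 43.9 and 41.1 CPM. CD4 T-like cells held Frmd8, which stabilises that complex, at 39.1 and 33.3 CPM. Of 4 tissue inhibitors of metalloproteinases, Timp2 stood at 248 and 224 CPM in macrophage-like cells and the others below 20 CPM. Of the 4 partner and inhibitor genes at 20 CPM in macrophage-like cells, Tspan33 was the 1 that differed by 1.5-fold.

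Other ADAM proteases were present beside the sheddases. Of 7, Adam9, Adam15 and Adam19 reached 20 CPM in macrophage-like cells, and Adam19 was lower by 1.5-fold at 94.0 and 56.8 CPM (background 9.67%). In migratory DC-like cells Adam8 stood at 66.2 and 37.0 CPM and Adam19 at 60.8 and 33.7 CPM, both lower by as much (background 11.8%). Adam12 stood highest in gamma-delta T-like cells, at 54.0 and 59.6 CPM.

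Of the other transmembrane chemokine, Cx3cl1, macrophage-like cells held 1.22 and 0.521 CPM, from a handful of UMIs, while its receptor gene Cx3cr1 stood at 205 and 296 CPM. Of 9 other substrates of both proteases, 7 reached 20 CPM in macrophage-like cells, 1 higher (Lag3, 25.6 and 43.7 CPM) and 1 lower (Notch2, 57.4 and 37.0 CPM) by 1.5-fold, where 9.72% and 9.67% of genes were. Tnf, the cytokine for which ADAM17 is named, stood at 605 and 755 CPM there.

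Patterns over classes placed the members among different genes. Over 32 points, 16 classes in 2 libraries, and 8222 genes, the genes with the highest Pearson correlation of log2(CPM + 1) to Cxcl16 were Tspan33 (0.97), Slamf8, Il1b, Cxcl9 and Ptgs2 (0.97). Cxcl9, a T-cell attractant induced by interferon-gamma, stood at 3465 and 3355 CPM in macrophage-like cells. For Cxcr6 they included Camk4 (0.94), Skap1, Prkcq and Gm29243 (0.93), of which Skap1 and Prkcq act in T-cell receptor signalling.

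Adam10 was followed by Zkscan14 (0.89), Ttc14, Gak, Setd5 and Mms19 (0.86), and Adam17 by Mapkapk2 (0.91), Mfsd1, Fth1, Ptprj and Atp6v1a (0.84). Between members the correlation was -0.69 for Cxcl16 with Cxcr6, 0.52 for Cxcl16 with Adam17 and -0.44 for Cxcl16 with Adam10. Points of 1 library share its depth, and classes differ in size, so these are descriptions.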

How the data were processed

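The deposited files give raw UMI counts for each gene and barcode of 10x 3′ v3.1 libraries, made with Cell Ranger 7.0.1 on mm10, per the submitters' processing notes. Strand and intron counting are not given in the sources used here. The members, markers and lists were chosen with earlier results of these data known, and gate thresholds were set with the data in view. No sample's columns were left unused.

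Barcodes needed at least 500 genes (1582 and 311 failed) and at most 10% mitochondrial UMIs (53 and 84 failed). Doublet scores came from Scrublet in scanpy 1.11.5 (2 simulated per barcode). The highest scores were removed at 0.8% per 1000 barcodes, 1358 (11.1%) and 862 (8.44%). That share was set by the number of barcodes and not estimated. Cells were classed, without clustering, by UMI rates per 10000 and the number of markers with a UMI. Barcodes with markers of several lineages were left out.

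UMIs were summed per class and library as CPM, with exact Poisson intervals. Shares have exact Clopper-Pearson intervals, and ratios conditional ones. No test was possible with 1 library per group. Shares were compared in cells thinned to 2000 UMIs. A gene was counted as higher or lower at 1.5-fold among genes at 20 CPM or more in either library. Named genes are the 4 members, the 5 genes most like each by Pearson correlation over classes (20 CPM in 1 class of each library, markers left out) and all genes of the lists. Scripts were tested on simulated data (Python 3.11.15, numpy 2.4.6, scipy 1.17.1, pandas 2.3.3). Coordinates are from GENCODE for GRCm38, matched by gene ID (32158 of 32285 IDs). A few values of single genes are left out and not reported here.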

Additional observations from a re-analysis of the deposited data

How the results depend on the processing

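Each of 8 results (the 4 members' ratios in the classes named and the numbers of classes and states above 100 CPM) was computed again under up to 7 planned settings and 2 chosen after seeing the data. Of 66 such values 62 moved by less than the counting interval or 1.5 times, and 4 moved. No value whose interval lay away from 0 changed sign. The log2 ratio of Cxcl16 in macrophage-like cells was -0.81 when the condition on other lineages' markers was dropped, a setting chosen after seeing the data, and that in migratory DC-like cells was -0.70 when each gate asked for 1 more marker and -0.68 with that condition dropped. The log2 ratio of Cxcr6 in CD8 T-like cells was 0.32 as a mean of single-cell CPM. The cause of these shifts was not tested. Ranges were -0.81 to -0.56 and -1.04 to -0.68 for Cxcl16, below 0 under all 9 alternatives, 0.32 to 0.45 for Cxcr6 in CD8 T-like and 0.50 to 0.62 in Treg-like cells. In macrophage-like cells Adam10 ranged from -0.25 to 0.12 and Adam17 from -0.15 to 0.04, each below 0 under 3 of 9, so no direction holds. Shares depend on depth: at 1000 UMIs CD8 T-like cells with Cxcr6 were 19.9% and 20.4%, and at 4000 UMIs 32.7% and 39.7%. No paired analysis was possible because each group has 1 library, and none could be left out. Classes of few cells and the single library per group limit precision.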
